A study of Mus musculus with 6 samples.

Results

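A set of 319 annotated transcripts was lower after both triptonide and triptolide than in control in GC2 cells, a mouse line that the labels call a spermatocyte line. The set was chosen from the measured values. A transcript with a mouse Ensembl ID was a member when both control libraries had at least 3 FPKM (mapped fragments scaled by transcript length and library size), the control mean was under 200 FPKM, and the highest of the 4 treated libraries was at most 0.6 times the lower control library. The 319 members were 4.19% of the 7620 annotated transcripts that met the control conditions and 0.489% of the 65189 annotated transcripts in the table, which has 65535 rows in all. Because the rule used the levels after each compound against control, those values are given as a description, without a test. Only the difference between the compounds was tested.

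Triptolide, a diterpenoid from Tripterygium wilfordii, binds XPB, a subunit of the general transcription factor TFIIH, and so inhibits transcription by RNA polymerase II. Triptonide is a close analog that carries a ketone where triptolide has a hydroxyl group. It is known as background that, once synthesis of an RNA stops, its level declines at its own rate of decay, so that short-lived RNAs are lost first. Synthesis and decay were not measured here.

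The 3 groups, with 2 libraries each, were cells given triptonide, cells given triptolide (spelled Tiptolide in the sample labels), and control cells. All came from the same line (the series text also speaks of testis), with rRNA-depleted, strand-specific, paired-end libraries of 150 bases. The labels' protocol, worded alike for every sample, gives a 24 h exposure to 0.1 µM triptolide after 12 h of culture and no dose or time for triptonide. The doses of the 2 compounds therefore cannot be said to match, and it is not stated whether the control cells received a vehicle. Nothing in the labels ties the 2 libraries of a group to separate cultures. The p-values below reflect only how far these libraries differ, which may be technical.

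Gene names are not paired with the transcripts in the table, and 0 of its IDs matched the gene tables used here. Members are therefore called by transcript ID, with no gene role, no check of the cell type against marker genes and no sequence. Transcripts of one locus can overlap and share fragments, which makes the level of a single transcript less certain than that of a gene, and an exact 0 can be a failed estimate. Absolute depth is unknown. Steps among FPKM values between 0.005 and 0.2, where single fragments can show, did not settle the relative depth. They rested on 1 ratio in control replicate 2 and on only 18 to 36 ratios in each of the other libraries. Rows above 0 numbered 40956 and 41054 in the triptonide libraries, 41088 and 41680 in the triptolide libraries, and 36592 and 37997 in control. In bulk RNA, fewer cells of a kind and less RNA per cell cannot be told apart.

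Most members were reduced by part and a few were nearly gone. The ratio of the highest treated to the lower control library was between 0.5 and 0.6 for 196 members, or 61.4%. Fewer members lay at each lower step down to 0.1, with 66 between 0.4 and 0.5, 27 between 0.3 and 0.4, 13 between 0.2 and 0.3 and 5 between 0.1 and 0.2. A further 12 members lay at or under 0.1, more than in the step above. The threshold cuts a continuous distribution, since 434 transcripts lay between 0.6 and 0.7.

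**Figure D1:**
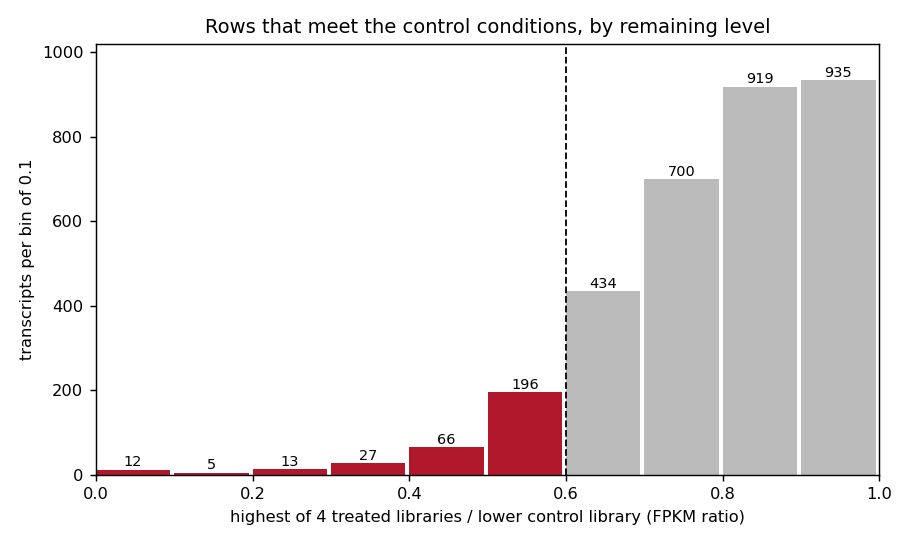
Number of transcripts that met the control conditions (y axis) by the ratio of the highest treated library to the lower control library (x axis, bins of 0.1), with members in red left of the dashed line at 0.6. The counts decline from 196 to 5 towards lower ratios and reach 12 in the lowest bin; the 4313 transcripts with a ratio over 1 are not drawn.

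Across the 319 members the median level was 3.11 and 2.90 FPKM in the triptonide libraries, 1.88 and 1.86 FPKM in the triptolide libraries, and 8.21 and 8.06 FPKM in the control libraries. The libraries of a group were close to each other, and triptonide lay between triptolide and control. Control means ran from 3.05 to 194 FPKM with a median of 8.24, and 185 members (58.0%) had a control mean under 10 FPKM, against 51.0% of the 7301 transcripts that met the control conditions and were not members. Another 115 members had 10 to under 50 FPKM and 19 had 50 FPKM or more. Summed over the members, the level was 2633 and 2420 FPKM after triptonide, 1404 and 1449 FPKM after triptolide, and 5794 and 5714 FPKM in control. The members held 0.666% and 0.642% of all FPKM in the table in the triptonide libraries. Their share was 0.239% and 0.288% in the triptolide libraries, and 1.56% and 1.63% in control. All FPKM summed to 395459 and 376961 after triptonide, 588470 and 503572 after triptolide, and 372058 and 349558 in control. The shares therefore also reflect the larger sums after triptolide. Outside the 100 most abundant transcripts the members' share averaged 1.53% after triptonide, 0.946% after triptolide and 3.34% in control.

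As a share of its control mean, the median member kept 44.0% after triptonide and 23.6% after triptolide. The middle of the list, from the 25th to the 75th percentile, spanned 31.2% to 51.4% after triptonide and 16.7% to 31.2% after triptolide. At most 25% of the control mean remained for 53 members after triptonide and for 172 after triptolide. At most 50% remained for 219 members after triptonide and for 316 after triptolide. The triptolide mean was below the triptonide mean for 286 of the 319.

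**Figure D2:**
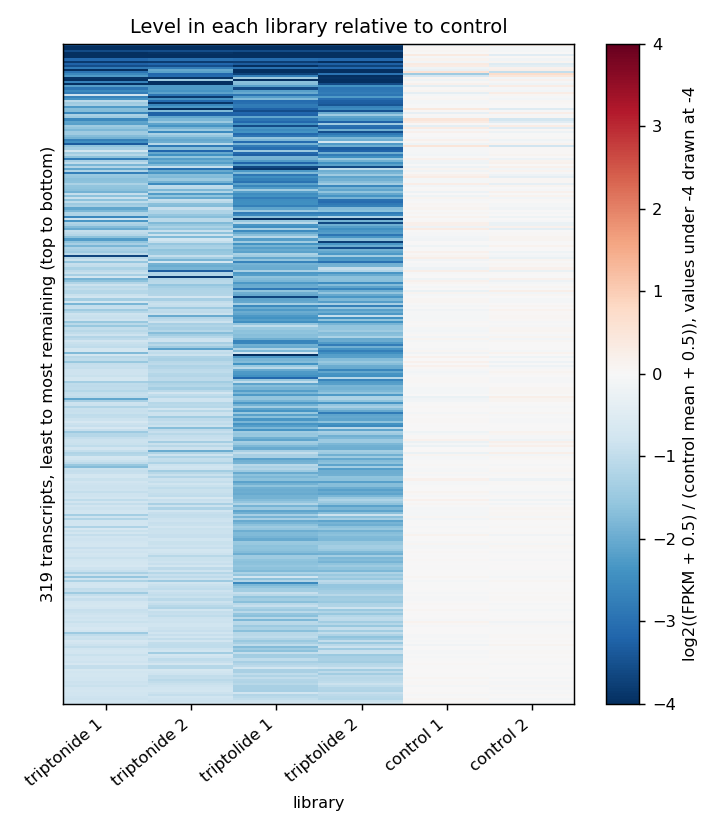
Level of the 319 members in each of the 6 libraries, as log2((FPKM + 0.5) / (control mean + 0.5)), with transcripts from the least remaining at the top to the most remaining at the bottom. The triptolide columns are darker than the triptonide columns over most of the list, and a block at the top is dark in all 4 treated libraries.

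The scaling of the libraries bears on these shares. Over all 23407 transcripts tested the median log2 difference to control was -0.01 after triptonide and -0.26 after triptolide with FPKM as deposited, and 0.0077 and 0.01 with median-of-ratios scaling. With that scaling the median member kept 44.8% after triptonide and 30.7% after triptolide. The rule then found 244 transcripts, of which 240 were also members as deposited. These 240 were 75.2% of the members as deposited and 98.4% of the list after scaling.

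Replicate libraries were less alike after treatment than in control, more so for the members than for other transcripts. The median absolute log2 difference between the 2 libraries of a group was 0.18 after triptonide, 0.19 after triptolide and 0.098 in control for the members. For the transcripts that met the control conditions and were not members it was 0.12, 0.13 and 0.10 in the same groups. The 2 triptonide libraries lay more than 1 log2 unit apart for 30 members, the 2 triptolide libraries for 34, and the 2 control libraries for 5. The members' level was also lower in the treated libraries. The rule sets a minimum for both control libraries and only a cap for the treated ones, so it shapes this contrast in the members. The part of the level and of the rule in the wider spread was not tested.

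ENSMUST00000020408 had the widest gap in control, with 1.23 and 0.658 FPKM after triptonide, 0.304 and 0.859 FPKM after triptolide, and 3.40 and 16.4 FPKM in control. Both compounds lay below both control libraries, but the control libraries differed 4.83-fold from each other. ENSMUST00000118294 had uneven treated libraries, with 1.93 and 0.00997 FPKM after triptonide, 4.48 and 0.317 FPKM after triptolide, and 16.0 and 14.9 FPKM in control. The compounds overlapped there, and the interval of their difference ran from -3.83 to 2.12 log2 units.

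The 6 most abundant members kept 44.0% to 54.3% of control after triptonide and 21.1% to 28.8% after triptolide. ENSMUST00000110476 had 101 and 109 FPKM after triptonide, 56.1 and 55.6 FPKM after triptolide, and 197 and 191 FPKM in control. ENSMUST00000189457 had 97.7 and 89.6 FPKM after triptonide, 36.0 and 42.2 FPKM after triptolide, and 188 and 182 FPKM in control. In both, the 3 groups were well apart, with triptonide in the middle. ENSMUST00000018246 had 79.6 and 73.1 FPKM after triptonide, 35.5 and 38.1 FPKM after triptolide, and 193 and 153 FPKM in control. ENSMUST00000075558 had 85.3 and 74.2 FPKM after triptonide, 39.8 and 41.8 FPKM after triptolide, and 167 and 157 FPKM in control. The order of the groups was the same, with a wider gap between the control libraries in ENSMUST00000018246. ENSMUST00000091703 had 81.9 and 74.1 FPKM after triptonide, 35.1 and 33.4 FPKM after triptolide, and 148 and 142 FPKM in control. ENSMUST00000068031 had 75.5 and 76.2 FPKM after triptonide, 35.5 and 37.4 FPKM after triptolide, and 139.7 and 139.6 FPKM in control.

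All 6 were higher after triptonide than after triptolide with limma, at adjusted p from 0.00637 for ENSMUST00000110476, ENSMUST00000091703 and ENSMUST00000068031 to 0.0126 for ENSMUST00000018246. The log2 difference was smallest in ENSMUST00000110476, at 0.91 ± 0.052 (SE), and largest in ENSMUST00000189457, at 1.25 ± 0.093 (SE).

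Among the 12 members at or under 0.1 of the lower control library after both compounds, ENSMUST00000019043 was listed at 0 in all 4 treated libraries and had 3.99 and 6.16 FPKM in control. ENSMUST00000083936 had 0.00193 and 0.0025 FPKM after triptonide, 0.00247 and 0.00274 FPKM after triptolide, and 18.6 and 16.6 FPKM in control. Treated values this small are close to 0 beside the control level, and the compounds overlapped. ENSMUST00000163492 had 0.000477 and 0.00731 FPKM after triptonide, 0.00135 and 0.000597 FPKM after triptolide, and 9.16 and 8.41 FPKM in control. ENSMUST00000113941 had 0.000608 and 0.015 FPKM after triptonide, 0 and 0.000967 FPKM after triptolide, and 5.81 and 5.16 FPKM in control. The highest control mean of the 12 was that of ENSMUST00000121285, with 0.235 and 0.24 FPKM after triptonide, values listed at 0 in both triptolide libraries, and 32.1 and 34.5 FPKM in control. ENSMUST00000092576 was also listed at 0 in both triptolide libraries, with 0.0031 and 0.0316 FPKM after triptonide and 7.34 and 7.62 FPKM in control.

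The others of the 12 kept traces. ENSMUST00000145132 had 0.111 and 0.122 FPKM after triptonide, 0.128 and 0.0283 FPKM after triptolide, and 7.48 and 8.72 FPKM in control. ENSMUST00000067760 kept the most, with 0.248 and 0.277 FPKM after triptonide, 0.176 and 0.107 FPKM after triptolide, and 4.22 and 5.45 FPKM in control. In ENSMUST00000186028, ENSMUST00000140643, ENSMUST00000146267 and ENSMUST00000194604 the treated libraries reached at most 0.213 FPKM, while the control libraries had 3.31 to 12.5 FPKM. The control libraries themselves differed 1.96-fold in ENSMUST00000140643, at 6.49 and 3.31 FPKM, and 1.81-fold in ENSMUST00000146267, at 12.5 and 6.87 FPKM.

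None of the 12 was called different between the compounds by limma (adjusted p from 0.0590 for ENSMUST00000121285 to 1 for ENSMUST00000019043), and 1 of them, ENSMUST00000121285, had an unadjusted limma p under 0.05. On the log2(FPKM + 0.5) scale of this test values near 0 hardly differ from each other, so a ratio between the compounds was not resolved for these transcripts.

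Transcripts that showed the opposite pattern stood near some of the 12. A mirrored row is defined here, after the data were seen, as a row with at least 1 FPKM in all 4 treated libraries and a lowest treated value at least 2 times the higher control value. The table holds 578 such rows. One lay within 3 rows of 5 of the 12 members (41.7%), of 28 of the other 307 members (9.12%), and of 487 of the 7301 transcripts that met the control conditions and were not members (6.67%). The numbers of unannotated loci did not fall at 99.4% of the 345 steps between them down the table, so the unannotated rows follow a locus order. The order of the annotated rows was not tested, nor was whether neighbouring rows share a gene. With 10 rows on either side the mirrored rows stood near 21.0% of the members and 18.6% of the other transcripts, and still near 5 of the 12.

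Directly beside ENSMUST00000121285 in the table, ENSMUST00000003726 had 28.2 and 28.0 FPKM after triptonide, 15.0 and 16.1 FPKM after triptolide, and 0.959 and 1.18 FPKM in control. Summed, the pair had 28.4 and 28.2 FPKM after triptonide, 15.0 and 16.1 FPKM after triptolide, and 33.1 and 35.7 FPKM in control. That a sum lies higher relative to control than the member alone follows from the definition of a mirrored row. The sum was nearer to control after triptonide than after triptolide. ENSMUST00000196710, in the row next to ENSMUST00000083936, had 7.58 and 10.6 FPKM after triptonide, 7.38 and 8.90 FPKM after triptolide, and was listed at 0 in both control libraries. This pair summed to 7.59 and 10.6 FPKM after triptonide, 7.39 and 8.90 FPKM after triptolide, and 18.6 and 16.6 FPKM in control. In the other 3 pairs the sum of both rows passed control in at least 1 treated group. ENSMUST00000188302, 2 rows from ENSMUST00000186028, had 15.8 and 23.2 FPKM after triptonide, 13.8 and 11.9 FPKM after triptolide, and was listed at 0 in control. ENSMUST00000146137, next to ENSMUST00000140643, had 8.05 and 3.57 FPKM after triptonide, 10.7 and 17.1 FPKM after triptolide, and was listed at 0 in control. ENSMUST00000100790, 2 rows from ENSMUST00000067760, had 6.87 and 7.62 FPKM after triptonide, 3.20 and 3.15 FPKM after triptolide, and 1.21 and 1.19 FPKM in control.

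**Figure D3:**
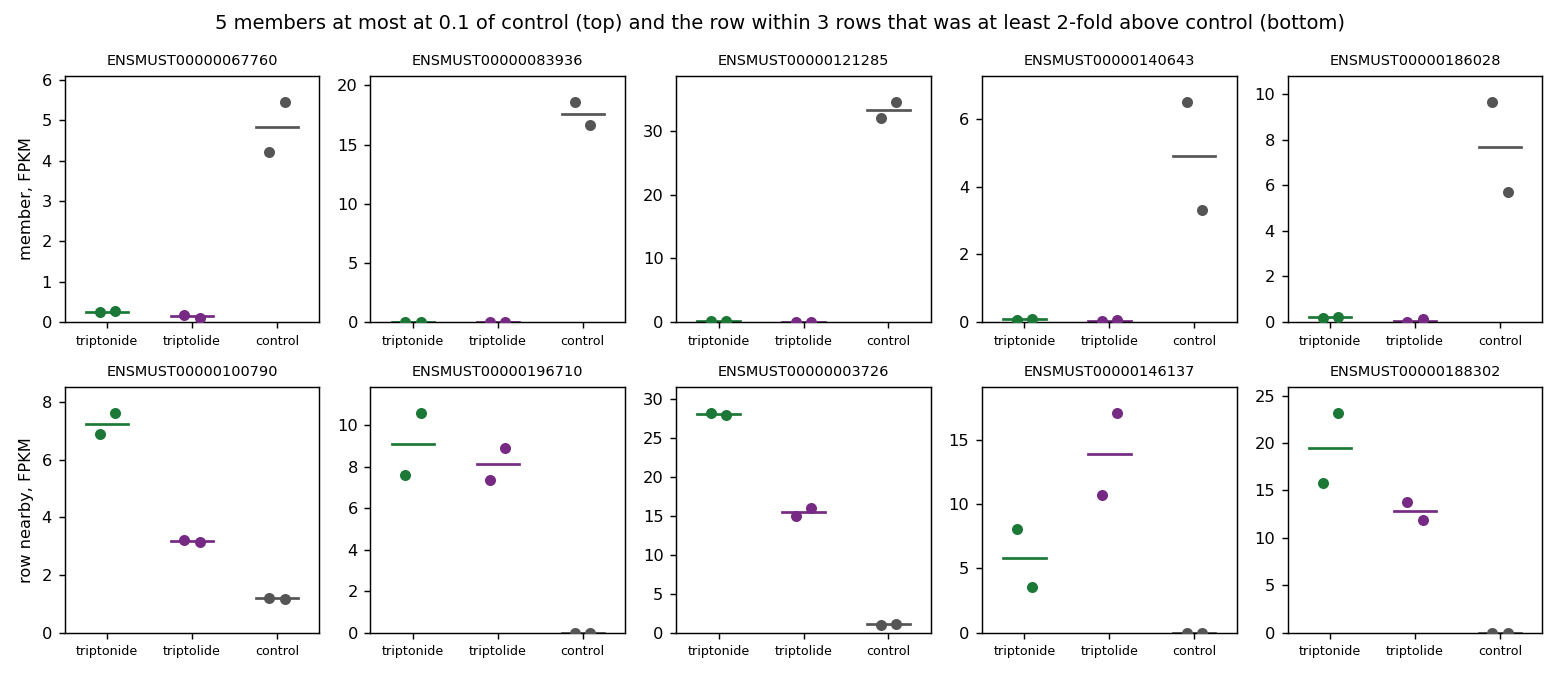
FPKM in each library (points) and group mean (lines) for the 5 near-absent members with a mirrored row within 3 rows (top) and for that row (bottom), each panel with its own axis from 0. The members are near 0 in all 4 treated libraries, where the rows below them are highest.

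Members also stood near each other. Another member lay within 3 rows of 28 members (8.78%), and a member lay within 3 rows of 4.30% of the transcripts that met the control conditions and were not members. The 6 rows around a member had a median of 87.3% of control after triptonide and 63.5% after triptolide. Around the other transcripts that met the control conditions these medians were 99.4% and 84.0%. In 8 cases 2 members were directly adjacent. One such pair was ENSMUST00000091703, given above, and ENSMUST00000139822, which had 6.81 and 9.23 FPKM after triptonide, 3.53 and 3.87 FPKM after triptolide, and 17.2 and 20.9 FPKM in control. Both members of that pair had the same order of groups.

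The compounds, which differ by a ketone against a hydroxyl group, were then compared directly, at a triptonide dose that the labels do not give. With limma, 124 of the 319 members (38.9%) were higher after triptonide and 1 (0.313%) was lower at an adjusted p under 0.05. Over all transcripts tested, 12.1% were higher and 3.62% were lower. Among the 7301 transcripts that met the control conditions and were not members, 29.1% were higher and 4.66% were lower. Their median log2 difference was 0.35. The median log2 difference of the members was 0.62, against 0.24 over all transcripts tested, and it was above 0 for 283 members. Both triptonide libraries lay above both triptolide libraries for 219 members (68.7%), where the background was 44.9%. Both triptolide libraries lay above both triptonide libraries for 10 members (3.13%), where the background was 16.3%. These backgrounds are over all transcripts tested and are not matched for control level. The rule caps the highest treated value, whichever compound it came from, and so used the same 4 treated values as this test. It requires a low level after each compound and lets the lower compound lie anywhere under the cap. The shares of the members therefore describe a set that is not independent of the difference tested. All 319 passed the filter on low values, as the control minimum ensures.

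**Figure D4:**
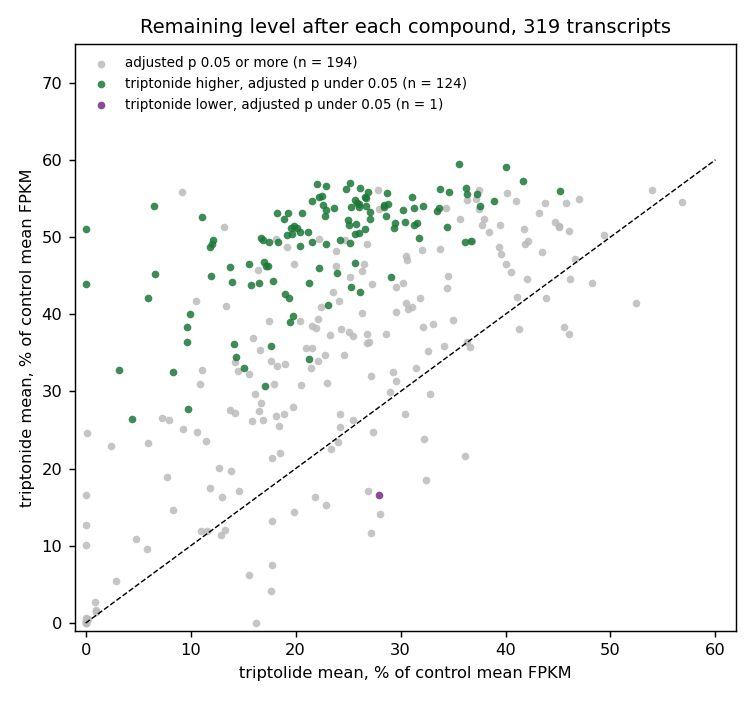
Mean level after triptonide (y axis) against mean level after triptolide (x axis), each as a percentage of the control mean, for the 319 members, with colours for the limma call between the compounds and a dashed line of equality. The 124 members called higher after triptonide lie above the line, and 1 member called lower lies below it.

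Abundant transcripts were called more often, among members and among others. Of the 107 members with the highest control means (11.7 to 194 FPKM), 66.4% were called higher after triptonide, with a median log2 difference of 0.76. Transcripts at those control levels that were not members were called higher in 36.9%, with a median of 0.28. At control means between 5.74 and 11.7 FPKM, 30.2% of the members and 28.7% of the others were called, with medians of 0.64 and 0.39. At 3.05 to 5.74 FPKM the shares were 19.8% and 16.8%, with medians of 0.46 and 0.37. The share of members called was thus near that of other transcripts below 11.7 FPKM. Of control, the median member kept 49.4% after triptonide and 23.6% after triptolide in the most abundant group, and 40.2% after triptonide and 23.5% after triptolide in the least abundant one.

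The count of 124 depended on the libraries and on the scaling, as did the number of calls over all transcripts tested. It was 10 without triptonide replicate 1, 60 without triptonide replicate 2, 60 without triptolide replicate 1, 81 without triptolide replicate 2, 72 without control replicate 1 and 73 without control replicate 2, where a residual degree of freedom is lost as well. With median-of-ratios scaling it was 67 (21.0%), all among the 124, against 4.80% over all transcripts tested, and the median log2 difference was 0.34 for the members and -0.0035 for all.

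The largest difference was that of ENSMUST00000191104, which had 22.7 and 19.1 FPKM after triptonide, was listed at 0 in both triptolide libraries, and had 40.3 and 41.6 FPKM in control (limma adjusted p = 0.00130). ENSMUST00000001331 was also listed at 0 in both triptolide libraries, with 2.19 and 2.73 FPKM after triptonide and 4.78 and 6.41 FPKM in control (limma adjusted p = 0.00734). Both triptolide values being 0 narrows the spread that the fit sees, so both p-values may be too small, and the call of ENSMUST00000001331 was lost without triptonide replicate 1 (adjusted p = 0.0523). ENSMUST00000005719 had 3.12 and 3.20 FPKM after triptonide, 0 and 0.768 FPKM after triptolide, and 5.73 and 5.98 FPKM in control. Its call (limma adjusted p = 0.0415) was lost in 12 of the 16 other settings.

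In the other 3 of the 6 largest differences all libraries were above 0. ENSMUST00000029188 averaged 2.77 ± 0.040 FPKM after triptonide, 0.467 ± 0.036 FPKM after triptolide and 10.5 ± 0.41 FPKM in control (SD, n = 2 each), a log2 difference between the compounds of 1.76 ± 0.12 (SE; limma adjusted p = 0.00658). ENSMUST00000023075 averaged 4.89 ± 0.035 FPKM after triptonide, 1.20 ± 0.12 FPKM after triptolide and 9.96 ± 0.66 FPKM in control (SD, n = 2 each), a log2 difference of 1.66 ± 0.11 (SE; limma adjusted p = 0.00671). Without triptonide replicate 1 the adjusted p was 0.0519 for ENSMUST00000029188 and 0.0523 for ENSMUST00000023075, past the threshold in both. ENSMUST00000141542 averaged 1.92 ± 0.13 FPKM after triptonide, 0.273 ± 0.22 FPKM after triptolide and 4.57 ± 0.12 FPKM in control (SD, n = 2 each), a log2 difference of 1.68 ± 0.24 (SE; limma adjusted p = 0.0176). That call was lost in 5 of the 16 other settings, with adjusted p up to 0.0957 without triptonide replicate 1.

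In all, 7 members were at or under 0.1 of the lower control library in both triptolide libraries and over 0.25 in both triptonide libraries, while 0 showed the opposite pattern. Besides ENSMUST00000191104, ENSMUST00000001331, ENSMUST00000029188 and ENSMUST00000141542 these were ENSMUST00000027693, ENSMUST00000044970 and ENSMUST00000150655, named after their values were seen. ENSMUST00000044970 had 5.37 and 4.21 FPKM after triptonide, 1.39 and 1.06 FPKM after triptolide, and 14.1 and 15.3 FPKM in control. Members listed at 0 in at least 1 treated library numbered 24. Of these, 8 were at 0 in both triptolide libraries and 1 was at 0 in both triptonide libraries. These counts rest on the treated values that the rule used. FPKM as deposited also ran lower after triptolide over all transcripts tested, with a median log2 difference to control of -0.26, against -0.01 after triptonide. Whether the split is particular to the members was not tested.

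**Figure D5:**
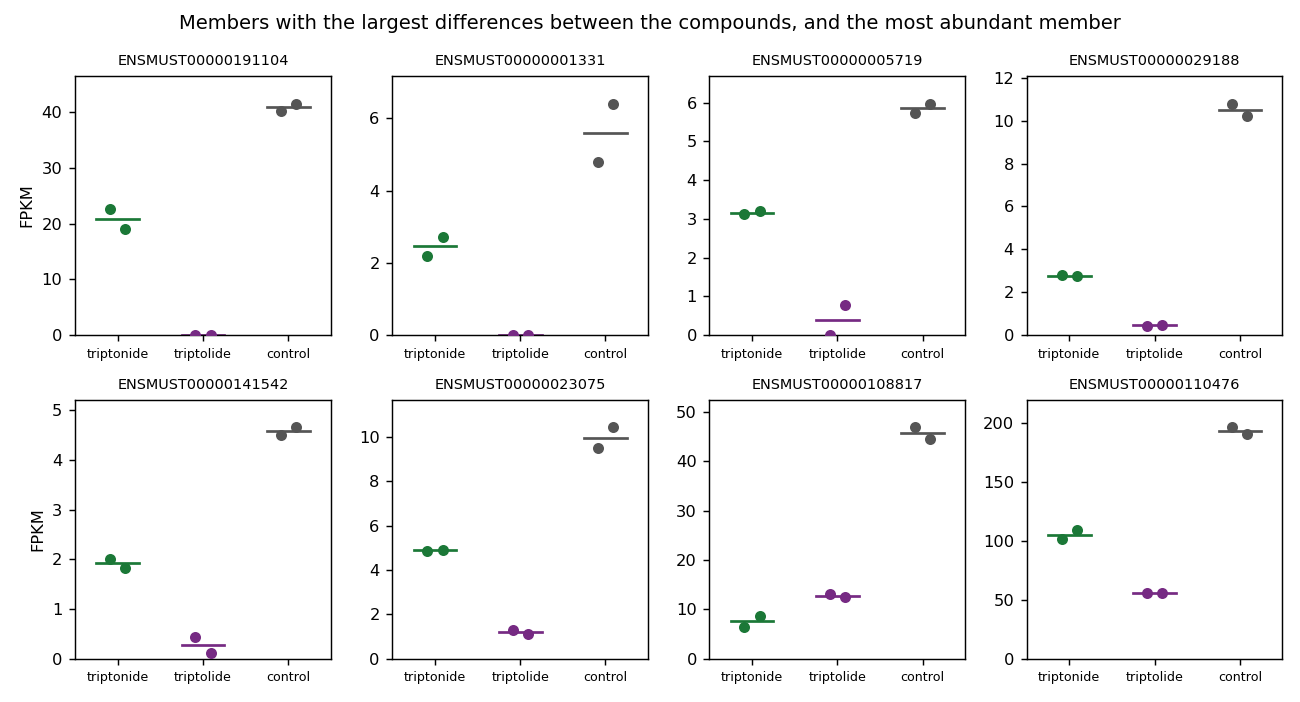
FPKM in each library (points) and group mean (lines) for the 6 members with the largest positive differences between triptonide and triptolide, for the 1 member called lower after triptonide, and for the most abundant member, each panel with its own axis from 0. Control is highest in every panel, and triptonide lies above triptolide except in ENSMUST00000108817.

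ENSMUST00000108817 was the 1 member lower after triptonide. It had 6.45 and 8.74 FPKM after triptonide, 13.1 and 12.5 FPKM after triptolide, and 46.9 and 44.6 FPKM in control. The log2 difference was -0.73 (95% confidence interval -1.12 to -0.34; limma adjusted p = 0.0400), and the call was lost in 9 of the 16 other settings, with adjusted p up to 0.145 without triptolide replicate 1. An adjacent row in the table is also a member, ENSMUST00000117558, with 6.21 and 4.95 FPKM after triptonide, 2.17 and 2.20 FPKM after triptolide, and 15.3 and 15.5 FPKM in control. It was higher after triptonide, with a log2 difference of 1.17 (95% confidence interval 0.84 to 1.51, limma adjusted p = 0.0104). These 2 members thus differed between the compounds in opposite directions. On the other side of ENSMUST00000108817 lies a mirrored row, ENSMUST00000047697. Their sum was 19.3 and 19.9 FPKM after triptonide, 14.1 FPKM in both triptolide libraries, and 47.0 and 44.6 FPKM in control. The order of the compounds was thus reversed in this sum. Summed with ENSMUST00000078267 or ENSMUST00000122447, mirrored rows within 3 rows, ENSMUST00000108817 stayed lower after triptonide. Whether these rows share a gene was not tested.

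Other members had higher triptolide libraries without passing the test. ENSMUST00000039110 had 1.18 and 1.02 FPKM after triptonide, 7.63 and 1.78 FPKM after triptolide, and 29.8 and 23.4 FPKM in control (limma adjusted p = 0.194). ENSMUST00000165316 had 17.5 and 15.4 FPKM after triptonide, 18.6 and 20.4 FPKM after triptolide, and 40.7 and 45.0 FPKM in control (limma adjusted p = 0.174). With median-of-ratios scaling ENSMUST00000165316 was lower after triptonide, as were ENSMUST00000108817 and ENSMUST00000130048 (limma adjusted p = 0.0222, 0.0252 and 0.0453, in that order). Over all 23407 transcripts tested, 1755 were lower and 1123 were higher after triptonide with that scaling. With FPKM as deposited, 848 were lower and 2821 were higher.

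Of the 194 members not called, 79 had a 95% confidence interval of the difference that fell wholly between -1 and 1 on the log2(FPKM + 0.5) scale. They include 11 of the 12 nearly gone members, whose intervals are narrow because that scale flattens values near 0 and say nothing of the ratio between the compounds. For the other 68 a 2-fold difference on this scale lies outside the interval, and smaller differences remain possible. A further 115 uncalled members had intervals that reach beyond those limits and leave a 2-fold difference possible. The median half-width of the interval was 0.46 log2 units. ENSMUST00000059844 had 10.7 and 9.44 FPKM after triptonide, 10.0 and 9.90 FPKM after triptolide, and 21.1 and 21.6 FPKM in control, with an interval of -0.21 to 0.23. ENSMUST00000015903 had 15.4 and 17.0 FPKM after triptonide, 15.5 and 16.0 FPKM after triptolide, and 38.9 and 37.7 FPKM in control, with an interval of -0.15 to 0.23. Both were near 0.5 of control after either compound, or somewhat under it. ENSMUST00000130048 had 17.4 and 16.6 FPKM after triptonide, 16.4 and 16.3 FPKM after triptolide, and 30.2 and 30.4 FPKM in control, with an interval of -0.09 to 0.21 with FPKM as deposited. ENSMUST00000087475 had 3.63 and 5.35 FPKM after triptonide, 5.44 and 3.90 FPKM after triptolide, and 10.3 and 11.0 FPKM in control, with a wider interval of -0.67 to 0.56.

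The ratios just inside and just outside the threshold were nearly the same, but the levels behind them varied. ENSMUST00000066646, at a ratio of 0.59986, had 5.01 and 5.03 FPKM after triptonide, 3.14 and 2.88 FPKM after triptolide, and 8.50 and 8.39 FPKM in control. ENSMUST00000165032, ENSMUST00000058491 and ENSMUST00000024657 followed at ratios of 0.599517, 0.599327 and 0.597712. The nearest transcript outside, ENSMUST00000075641 at a ratio of 0.600208, had 96.2 and 98.2 FPKM after triptonide, 100.4 and 109 FPKM after triptolide, and 205 and 181 FPKM in control. ENSMUST00000181810 and ENSMUST00000125784 lay outside at 0.600219 and 0.600493. ENSMUST00000106115, at 0.600819, was listed at 0 in both triptonide libraries and had 7.57 and 8.02 FPKM after triptolide and 14.3 and 13.4 FPKM in control, a pattern of near loss after triptonide with about 0.6 kept after triptolide.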

How the data were processed

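The deposited table gives 1 FPKM value per transcript and library, computed by the authors. Per the submitters' processing notes, STAR and StringTie were used, without versions, and the build is named as hg19, a human assembly, while the IDs are mouse, so no coordinates are given. Filters are not given in the sources used here. The 65535 rows are the limit of an old spreadsheet format, so the table may be cut short and its column sums are no depth.

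The members and the lists were chosen with earlier results of these data known. Transcripts that reached 0.5 FPKM in 2 or more of 6 libraries entered the test as log2(FPKM + 0.5), a scale that understates the change of low transcripts, in 1 fit of 3 group means with limma 3.58.1 (R 4.3.3) and an intensity trend. Benjamini-Hochberg adjustment ran over all 23407 transcripts, with 0.05 as the threshold. Named members were the 6 most abundant, the 8 with the least left after treatment and those listed at 0, the 6 most different in each direction between the compounds, the 6 with the closest compounds among those with a control mean at or above the median, and the 4 on either side of the threshold. The rest of the 12 members nearly gone, the neighbouring rows and the other members given with values were chosen after their values were seen. The gene lists and cell type markers planned could not be used without gene names.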

Additional observations from a re-analysis of the deposited data

How the results depend on the processing

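The number of members was 123 at a threshold of 0.5 and 753 at 0.7, and 535 with a control minimum of 1 FPKM. With 1 library left out of the rule, which then sets fewer conditions, it was 337 to 708. Members higher after triptonide numbered 67 with median-of-ratios scaling, 68 with quantile normalization, 62 with only the triptonide and triptolide libraries, 74 with the replicate number as a block, and 10 to 81 with 1 library left out. Members lower after triptonide numbered 3 with median-of-ratios scaling, 0 to 2 with 1 library left out, and 0 with no filter on low values, no intensity trend, the replicate block or only the triptonide and triptolide libraries. Calls over all transcripts tested, 3669 in the fit reported, were 1820 with only those libraries, 1639 with the replicate block and 91 to 1940 with 1 library left out. In the fit reported, 38.9% of the members and 12.1% of all transcripts tested were higher after triptonide. These shares were 21.0% and 4.80% with median-of-ratios scaling, and 21.3% and 5.58% with quantile normalization. They were 19.4% and 6.13% with only the triptonide and triptolide libraries, and 23.2% and 5.65% with the replicate block. Both shares fell in each of these settings, and that of the members stayed larger. The median log2 difference of the members was 0.34 with median-of-ratios scaling, 0.39 with quantile normalization and 0.57 to 0.72 with 1 library left out. The direction of this median was kept in all settings run. The deviations of same-numbered libraries hardly correlated, at 0.014 between triptonide and triptolide, 0.0096 between triptonide and control, and -0.037 between triptolide and control. Whether the libraries were prepared in pairs cannot be told from these values. The share of FPKM held by the members averaged 1.53% after triptonide, 0.946% after triptolide and 3.34% in control outside the 100 most abundant transcripts. Members with a mirrored row, 33 within 3 rows, numbered 13 within 1 row, 67 within 10 rows and 19 with a 4-fold change, settings chosen after the data were seen. In these 4 settings the shares of the members were 10.3%, 4.08%, 21.0% and 5.96%. Among the transcripts that met the control conditions and were not members they were 6.67%, 2.53%, 18.6% and 2.92%. The cause of these shifts was not tested.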
